A study of Saccharomyces cerevisiae with 6 samples.

Results

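The genes described here encode ribosome biogenesis factors of budding yeast, the proteins that build ribosomes but are not part of the finished particle. They were taken by name: every probe set whose annotated symbol is UTP, NOP, RRP, NOC, NSA, ENP, RLP or RSA followed by digits. This gave 65 genes of the 5449 tested, each with 1 probe set, and they are all 65 genes with such symbols in the gene table of assembly R64. Transcript levels had been measured on 6 Affymetrix Yeast Genome 2.0 arrays. On 3 arrays the cells carried the plasmid pYES3 with GmbHLHm1 (SAT1), which encodes a transcription factor of the basic helix-loop-helix class from soybean, and on the other 3 they carried pYES3 alone. The cells of all 6 arrays were of strain 26972c, an ammonium transport mutant (mep1-1, mep2∆, ura-) whose genotype lists Mep3 without a mutation. All cultures were grown first on glucose and proline, and then for 12 h with 2% galactose, which switches on the plasmid's promoter, and 1 mM ammonium. The question is which of these genes differ in transcript level when the soybean factor is produced from a galactose-driven plasmid.

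A ribosome starts as a long precursor RNA in the nucleolus. The small subunit processome, which includes the UTP-A and UTP-B complexes, forms around the first part of that RNA. Small nucleolar ribonucleoproteins (snoRNPs) guide its chemical modification, other factors fold and cut the large subunit precursor, and the RNA exosome trims RNA ends. In yeast these genes are known to be switched on and off together with growth rate and nutrient supply, through the TOR and Sch9 kinases and the factors Sfp1, Stb3, Dot6 and Tod6.

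Levels are given as log2 of the deposited RMA intensity, and changes as GmbHLHm1 minus empty vector on that scale. All 65 genes lay above the background level on all 6 arrays, with single values between 6.74 and 12.28. The 20 probe sets with the same names in lower case, whose gene identifiers are not those of budding yeast, lay below background on all 6 arrays, with a highest value of 4.45. MEP2, the gene deleted in this strain, read 3.63 to 4.01 on the GmbHLHm1 arrays and 4.22 to 4.32 on the empty vector arrays, below the background of 4.54 to 4.75. GAL1, a galactose enzyme gene, read 14.09 to 14.13 with GmbHLHm1 and 14.11 to 14.19 with the empty vector. Replicate tubes were seeded from starter cultures, and nothing says that the 3 cultures of a group came from separate transformants. The p-values therefore cover only the variation among these cultures, which may be technical, and 3 arrays per group limit the precision.

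Of the 65 ribosome biogenesis genes 1 rose, RSA3, and none fell. Each gene was tested two-sided with limma, and p-values were adjusted by Benjamini-Hochberg over the 5449 genes. That is 1.54% of the members, against 12.1% of all tested genes (7.45% higher and 4.64% lower). At an unadjusted p under 0.05, 4 members were counted, against 26.9% of all tested genes. For 5 members the GmbHLHm1 and empty vector arrays did not overlap, 4 higher and 1 lower, which is 7.69% of them, against 33.2% of all tested genes (19.3% higher and 13.9% lower). The median SD within the GmbHLHm1 group was 0.15 for the members and 0.09 for all tested genes. A wider spread makes such counts smaller for a change of a given size. The median log2 change of the members was 0.03, against 0.02 over all tested genes. Of the members 43 had a positive change (66.2%, against 56.7% of all tested genes) and 22 a negative one, and for 46 the change was smaller than 0.1.

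The intervals bound what these arrays could have missed. The unadjusted 95% interval of the log2 change lay within 0.5 of 0 for 61 of the 65 members, against 87.9% of all tested genes, and for all 65 it lay within 1. The farthest interval end was 0.55, a fold of 1.47, for UTP6. Changes larger than that in either direction were thus outside the interval of every member.

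**Figure D1:**
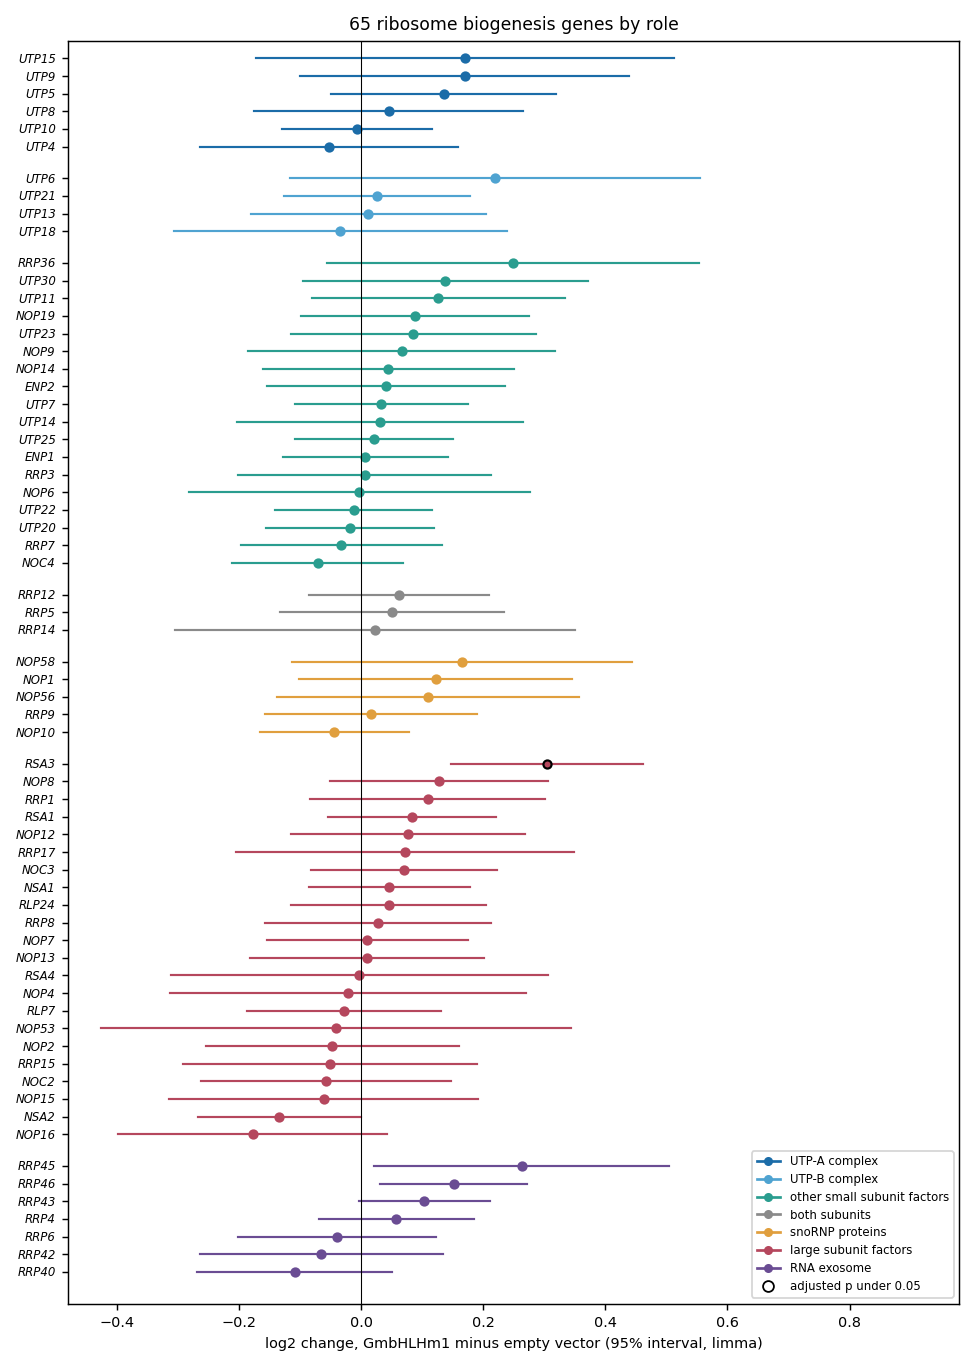
The log2 change (GmbHLHm1 minus empty vector) of each of the 65 genes on the horizontal axis, with its 95% interval from limma, grouped by role. Only RSA3, circled in black, passed the test over all genes, and the points of all role groups lie between -0.18 and 0.30.

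RSA3 encodes a factor of large subunit assembly that works in an early complex with the helicase Dbp6 and the proteins Nop8, Urb1 (Npa1) and Urb2 (Npa2). Its log2 level was 8.15, 7.92 and 8.01 on GmbHLHm1 replicates 1, 2 and 3, and 7.67, 7.72 and 7.77 on empty vector replicates 1, 2 and 3. Every GmbHLHm1 array lay above every empty vector array. RSA3 averaged 8.03 ± 0.11 with GmbHLHm1 and 7.72 ± 0.05 with the empty vector (SD, n = 3 each). It rose by 0.30 ± 0.07 (SE; 95% interval 0.15 to 0.46), a fold of 1.24, with adjusted p = 0.0283 by limma. By p-value it ranked 473rd among all tested genes.

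The call on RSA3 lay near the threshold. Its adjusted p by limma was 0.124, 0.097 and 0.0751 without empty vector replicate 1, 2 or 3, and 0.0673 without GmbHLHm1 replicate 3. When the tested genes were quantile normalized again, its change was 0.15, with adjusted p = 0.104.

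The other genes of the RSA3 complex were looked up after the values were seen. NOP8, a member by name, differed by 0.13 ± 0.08 between the groups (SE; limma adjusted p = 0.334). URB1 had 0.12, URB2 had 0.10 and the helicase gene DBP6 had -0.05, with adjusted p of 0.343, 0.407 and 0.68. On the chromosome RSA3 lies between CCC1, a vacuolar iron transporter gene, and UTP13, which is itself a member. CCC1 differed by -0.03 ± 0.05 and UTP13 by 0.01 ± 0.08 (SE), and for neither gene were the groups apart.

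The UTP-A complex binds the nascent precursor first and is also known for its link to transcription of the ribosomal DNA. None of its 6 genes among the members passed the test, and their median log2 change was 0.09. A subunit with another gene name is not counted here. UTP15 had the highest change, 0.17 ± 0.14 (SE; adjusted p = 0.509). Its level was 9.26, 8.77 and 9.30 on GmbHLHm1 replicates 1, 2 and 3, and 8.79, 9.04 and 8.99 on empty vector replicates 1, 2 and 3. GmbHLHm1 replicates 1 and 3 lay above all empty vector arrays and replicate 2 below them. UTP9, another subunit, had nearly the same change, 0.17 ± 0.11 (SE). UTP4 was the lowest, with a change of -0.05, and UTP10, the largest HEAT-repeat subunit, had -0.01 and an interval of -0.13 to 0.12.

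The UTP-B complex, which joins the precursor together with the U3 snoRNP, had 4 genes among the members, with a median change of 0.02. Its subunits with other gene names are not counted here. None passed the test. UTP6 read 9.53, 8.93 and 9.31 on GmbHLHm1 replicates 1, 2 and 3, and 8.93, 9.10 and 9.09 on empty vector replicates 1, 2 and 3. Its 3 GmbHLHm1 arrays spread over 0.60 log2 units and the lowest lay among the empty vector arrays. The change was 0.22 ± 0.14 (SE; adjusted p = 0.377). UTP21, UTP13 and UTP18 had changes of 0.03, 0.01 and -0.03.

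Another 18 members act in the small subunit branch outside those 2 complexes, and none of them passed the test. Their changes ran from -0.07 for NOC4 to 0.25 for RRP36, with a median of 0.03. RRP36, a factor of the first cuts in the precursor, read 7.44, 7.01 and 7.02 on GmbHLHm1 replicates 1, 2 and 3, and 6.74, 6.98 and 7.00 on empty vector replicates 1, 2 and 3. The groups did not overlap, but the nearest arrays, at 7.01 and 7.00, almost touched, and the change was 0.25 ± 0.13 (SE; adjusted p = 0.27). After quantile normalization of the tested genes its change was -0.00.

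NOC4, partner of the scaffold protein Nop14, averaged 10.46 ± 0.08 with GmbHLHm1 and 10.53 ± 0.06 with the empty vector (SD, n = 3 each), and NOP14 itself differed by 0.04. UTP22 and RRP7, whose products belong to the UTP-C complex, differed by -0.01 and -0.03. UTP20, a giant scaffold protein, differed by -0.02 with an interval of -0.16 to 0.12. UTP14, the activator of the helicase Dhr1, differed by 0.03, the helicase gene RRP3 by 0.01, and ENP1, whose product stays on the particle until late, by 0.01. RRP5, RRP12 and RRP14, which are needed for both subunits, differed by 0.05, 0.06 and 0.02, and none passed the test.

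Among the snoRNP proteins, NOP1 (fibrillarin, the methyltransferase), NOP56 and NOP58 form the core of the box C/D particles. Their changes were alike in size, 0.12 ± 0.09, 0.11 ± 0.11 and 0.16 ± 0.12 (SE), with adjusted p of 0.464, 0.562 and 0.421. NOP1 read 10.94, 10.78 and 11.16 on GmbHLHm1 replicates 1, 2 and 3, and 10.79, 10.88 and 10.84 on empty vector replicates 1, 2 and 3. NOP56 read 9.64, 9.22 and 9.55 on GmbHLHm1 replicates 1, 2 and 3, and 9.33, 9.42 and 9.33 on empty vector replicates 1, 2 and 3. For NOP1 and NOP56 alike, replicates 1 and 3 of GmbHLHm1 lay above every empty vector array and replicate 2 below. Without GmbHLHm1 replicate 2, NOP56 had a change of 0.23 and adjusted p = 0.0455 by limma. NOP10, of the box H/ACA particles that make pseudouridine, had a change of -0.04 and an interval of -0.17 to 0.08, which overlaps those of the box C/D genes. RRP9, a protein of the U3 particle, differed by 0.02.

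The large subunit factors were the largest group, 22 genes, in which RSA3 rose and none fell. Their median change was 0.01, with 12 positive and 10 negative. NSA2, an assembly factor that joins before export, read 10.99, 10.84 and 10.89 on GmbHLHm1 replicates 1, 2 and 3, and 11.03, 11.10 and 10.99 on empty vector replicates 1, 2 and 3. It was the single member whose GmbHLHm1 arrays all lay below the empty vector arrays, the nearest of them by a margin that vanishes on rounding. Its change was -0.13 ± 0.06 (SE; adjusted p = 0.183).

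NOP16 had the lowest change of all members, -0.18 ± 0.09 (SE; adjusted p = 0.273). Its level was 9.72, 9.38 and 9.39 on GmbHLHm1 replicates 1, 2 and 3, and 9.68, 9.71 and 9.64 on empty vector replicates 1, 2 and 3, so that replicate 1 of GmbHLHm1 alone reached the empty vector values. Without that array NOP16 was lower by limma, with a change of -0.29 and adjusted p = 0.0114. NOP53, which docks the exosome on the large subunit precursor, had the widest spread among the members with GmbHLHm1, with an SD of 0.37 against 0.03 with the empty vector. It read 9.79, 9.11 and 9.21 on GmbHLHm1 replicates 1, 2 and 3, and 9.44, 9.39 and 9.40 on empty vector replicates 1, 2 and 3. Its change was -0.04 over all arrays and -0.25 without GmbHLHm1 replicate 1, where its adjusted p was 0.0273 by limma.

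The remaining large subunit members did not pass with all 6 arrays. The methyltransferase genes NOP2 and RRP8 differed by -0.05 and 0.03. NOP15, an RNA-binding protein of the internal spacer region, differed by -0.06. RLP7 and RLP24, relatives of ribosomal proteins, differed by -0.03 and 0.04, and RSA4, which is pulled off the precursor by the ATPase Mdn1, by -0.00. RSA1, known also for its part in snoRNP assembly, had 0.08.

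The exosome members showed changes in both directions, and none of the 7 passed the test. RRP45, a ring subunit, read 9.10, 8.78 and 9.14 on GmbHLHm1 replicates 1, 2 and 3, and 8.64, 8.82 and 8.76 on empty vector replicates 1, 2 and 3. Its change was 0.26 ± 0.10 (SE; adjusted p = 0.155), and without GmbHLHm1 replicate 2 it was 0.38 with adjusted p = 0.0163 by limma. RRP46, another ring subunit, read 10.99, 10.99 and 10.91 with GmbHLHm1 replicates 1, 2 and 3, and 10.75, 10.84 and 10.85 with empty vector replicates 1, 2 and 3. The groups did not overlap for RRP46, whose change was 0.15 ± 0.05 (SE), with the smallest adjusted p after RSA3, 0.108.

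RRP43, also of the ring, had a change of 0.10 without overlap of the groups (adjusted p = 0.201). RRP40, a cap subunit, had -0.11 and the ring subunit gene RRP42 had -0.07, while the cap subunit gene RRP4 had 0.06 and the nuclear exonuclease gene RRP6 had -0.04. The difference between one subunit gene and another was not tested.

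**Figure D2:**
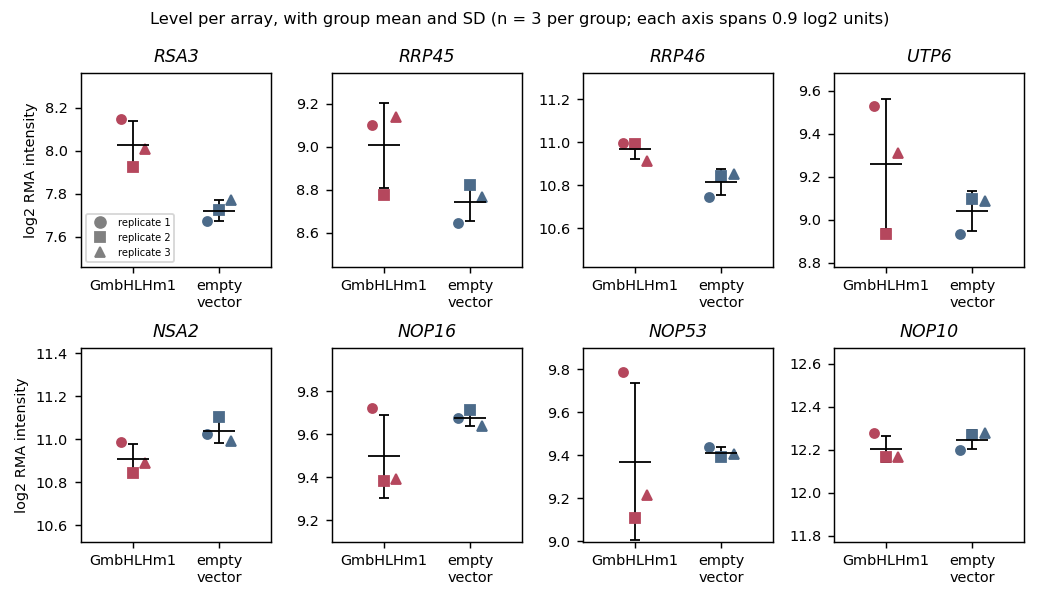
The log2 RMA intensity of 8 members on each array, GmbHLHm1 at the left and empty vector at the right of each panel, with the mean and SD of each group (n = 3). RSA3 and RRP46 show no overlap, whereas NOP53 and UTP6 spread widely among the GmbHLHm1 arrays.

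A pattern that the test of the groups does not show ran through the members: they moved together among the 3 GmbHLHm1 cultures. All 65 of 65 members were higher on GmbHLHm1 replicate 1 than on GmbHLHm1 replicate 2, against 54.4% of all tested genes. The median difference between these arrays was 0.25 for the members, ranging from near 0 for RRP46 to 0.68 for NOP53, and 0.02 over all tested genes. In 55 members replicate 1 exceeded all 3 empty vector arrays (47.7% of all tested genes), and in 40 members replicate 2 lay below all 3 (33.2% of all tested genes). The 2 went together in 32 members, against 9.49% of all tested genes. Replicate 3 lay between the other 2 in 41 members (63.1%, against 21.9% of all tested genes), above both in 12 and below both in 12. Members are not replicates of a culture, so these counts describe 3 arrays and no test is given for them.

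The spread was accordingly wider with GmbHLHm1. The mean of the 65 members was 9.76, 9.50 and 9.63 on GmbHLHm1 replicates 1, 2 and 3, and 9.54, 9.63 and 9.60 on empty vector replicates 1, 2 and 3. The SD between arrays of this mean was 0.13 with GmbHLHm1 and 0.04 with the empty vector, and the group means differed by 0.04. For 60 of the 65 members the SD was larger in the GmbHLHm1 group, against 74% of all tested genes. Each array measured a whole culture, so more growing cells and more of these transcripts per cell cannot be told apart.

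The shared movement differed between the role groups in size. The median difference between GmbHLHm1 replicates 1 and 2 was 0.30 for UTP-A, 0.35 for UTP-B, 0.26 for the other small subunit factors, 0.29 for the factors of both subunits, 0.25 for the snoRNP proteins, 0.27 for the large subunit factors and 0.09 for the exosome members. In 40 of the 58 members other than the exosome, replicate 1 was the highest and replicate 2 the lowest of the 3 arrays, and in 1 of the 7 exosome members, against 22% of all tested genes. Other genes of ribosome synthesis moved in the same way, and their difference from the members was not tested. Of the small subunit partners, a list that includes snoRNP protein genes, 32 of 33 were higher on replicate 1 than on replicate 2. Their median difference was 0.24. Of the large subunit partners 47 of 54 were higher on replicate 1, with a median difference of 0.23. Over all 7 lists of other ribosome synthesis genes it was 145 of 176 genes with a median difference of 0.16. The cytosolic ribosomal protein genes had 105 of 122 higher on replicate 1 and a smaller median difference of 0.07. With the tested genes quantile normalized again, 64 of 65 members were higher on replicate 1 (51.1% of all tested genes), and with median centring 63 (50.3%).

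On the same arrays, controls added to the samples also differed. The mean log2 level of 12 probe sets for bacterial poly(A) spike-in transcripts was 8.61, 9.41 and 9.15 on GmbHLHm1 replicates 1, 2 and 3, and 9.55, 9.14 and 9.43 on empty vector replicates 1, 2 and 3, lowest where the members were highest. The excess of 3′ over 5′ probe sets of 7 yeast control genes, a sign of RNA quality, was 1.39, 1.26 and 1.34 on GmbHLHm1 replicates 1, 2 and 3, and 1.40, 1.41 and 1.37 on the empty vector replicates. The weights that limma gave the arrays over all tested genes, lower for a noisier array, differed too. They were 0.35, 0.51 and 1.25 on GmbHLHm1 replicates 1, 2 and 3. The empty vector replicates 1, 2 and 3 had 1.49, 1.64 and 1.84. GmbHLHm1 replicates 1 and 2, the arrays compared above, thus had the lowest weights. The part of these array differences in the members' pattern was not tested. Leaving out 1 of the 2 arrays moved the calls: without GmbHLHm1 replicate 1, RSA3 rose and NOP16 and NOP53 fell (13.3% of all tested genes passed, 7.73% higher and 5.54% lower), and without GmbHLHm1 replicate 2, RSA3, RRP45, UTP6, UTP15 and NOP56 rose (13.2% passed, 8.04% higher and 5.18% lower).

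**Figure D3:**
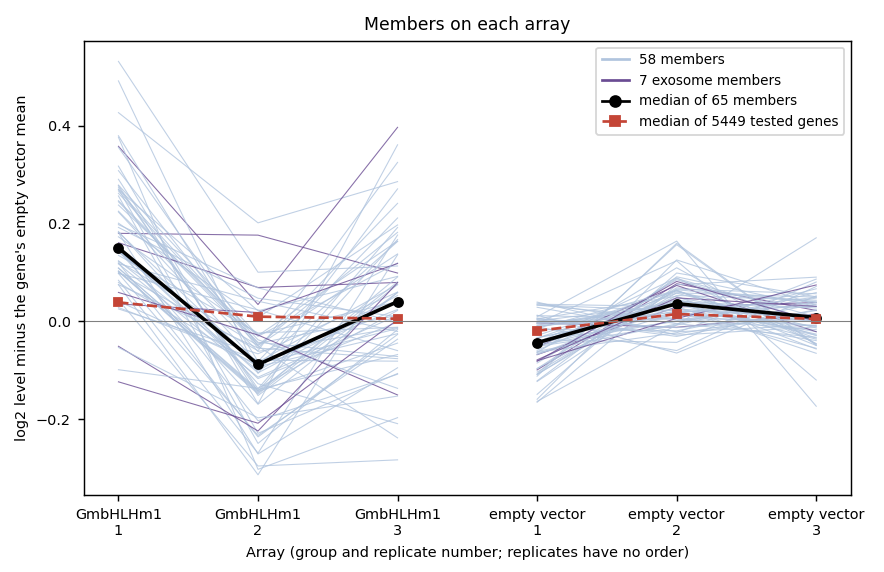
The log2 level of each member minus its empty vector mean on each array, with the 58 members outside the exosome in light blue, the 7 exosome members in violet, and medians of the members (black) and of all tested genes (red). The members' median is high on GmbHLHm1 replicate 1 and low on replicate 2, while the median of all tested genes stays near 0 on all arrays.

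Other genes of ribosome synthesis, in 7 lists chosen by function, held few changes as well. Of 179 genes listed 176 were tested, and of these 4 rose and 1 fell, 2.84% against 12.1% of all tested genes, and the median change was 0.03. The 33 small subunit partners include UTP-A and UTP-B subunit genes not named by the rule (NAN1, PWP2 and DIP2). They also include the snoRNP protein genes CBF5, GAR1, NHP2 and SNU13. None of the 33 passed, and the smallest p was that of GAR1, a box H/ACA protein gene, with 0.12 ± 0.05 (SE; adjusted p = 0.191). None of 14 late small subunit genes passed, with HRR25, a casein kinase gene, nearest at 0.18 (adjusted p = 0.081). Of 54 large subunit partners 1 fell, TIF6, which keeps the subunits from joining early. TIF6 read 11.94, 12.12 and 12.14 on GmbHLHm1 replicates 1, 2 and 3, and 12.35, 12.34 and 12.38 on empty vector replicates 1, 2 and 3. Its GmbHLHm1 arrays all lay below, and it fell by 0.29 ± 0.06 (SE; adjusted p = 0.0278).

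The list of 17 other exosome genes held core subunits not named by the rule (SKI6, DIS3, MTR3 and CSL4) as well as partners. None of the 17 passed, and 15 of them had positive changes, with a median of 0.07, where 56.7% of all tested genes were positive. The calls over the whole table leaned the same way, 406 higher and 253 lower, and their split depended on the scaling. After quantile normalization it was 331 higher and 332 lower. The share of positive changes after that step is not given here. AIR2, which brings RNA to the exosome, had 0.23 ± 0.07 (SE; adjusted p = 0.0796). Of 18 genes for RNA polymerase I and its factors, which transcribe the ribosomal precursor, 1 rose: RRN9, of the upstream activating factor, by 0.30 ± 0.08 (SE; adjusted p = 0.0474). Of 20 genes for RNA polymerase III and its factors 2 rose, RPC19, a subunit shared with polymerase I, by 0.26 and TFC8, of factor TFIIIC, by 0.25 (adjusted p of 0.0316 and 0.0144). That was 10% of this list, near the 12.1% of all tested genes.

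Of 20 regulators 1 rose, CRF1, a corepressor of ribosomal protein genes that acts under TOR. It read 10.44, 10.69 and 10.40 on GmbHLHm1 replicates 1, 2 and 3, and 10.14, 10.18 and 10.16 on empty vector replicates 1, 2 and 3, a rise of 0.35 ± 0.08 (SE; adjusted p = 0.0307). SFP1, the activator of ribosome biogenesis genes, differed by -0.03 with an interval of -0.14 to 0.08. Of 122 cytosolic ribosomal protein genes none passed limma's test over all genes, 5 had an unadjusted p under 0.05, and the median was -0.00. Without any 1 empty vector array at most 1 of the 176 genes passed. Calls over all tested genes also became fewer then, 251, 341 and 293 without empty vector replicate 1, 2 or 3, against 659 with all arrays. Without GmbHLHm1 replicate 1 there were 8 of the 176, 3 higher and 5 lower (13.3% of all tested genes passed). Without GmbHLHm1 replicate 2 there were 12, 11 higher and 1 lower (13.2% of all tested genes passed).

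**Figure D4:**
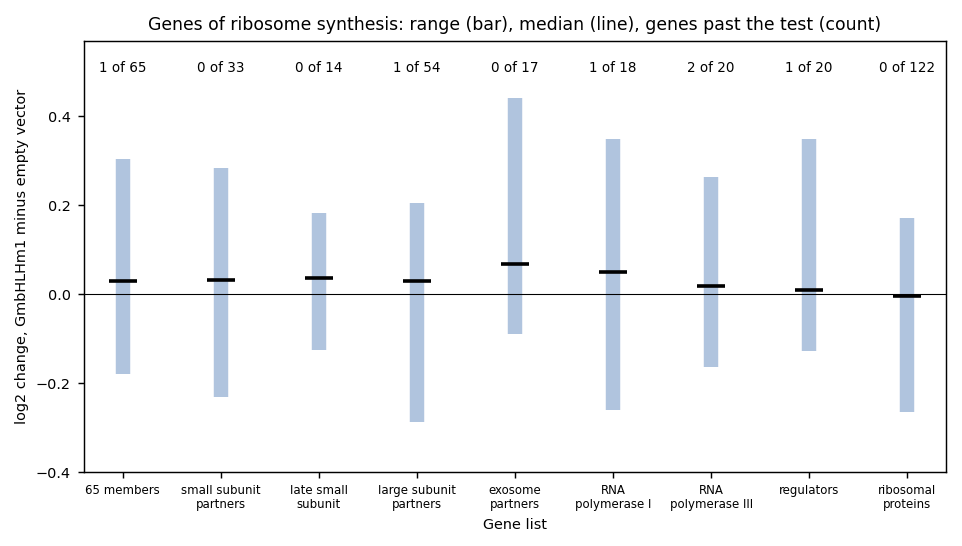
The range (bar) and median (black line) of the log2 change, GmbHLHm1 minus empty vector, in the 65 members, 7 lists of other ribosome synthesis genes and the cytosolic ribosomal protein genes, with the number past limma's test above each. All medians lie between -0.00 and 0.07, and no list has more than 2 genes past the test.

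The product of this pathway, ribosomal RNA, was read by control probe sets of the array. The mean over 8 probe sets for 18S rRNA, of the small subunit, was 8.90, 8.31 and 8.29 on GmbHLHm1 replicates 1, 2 and 3, and 9.89, 10.26 and 9.57 on empty vector replicates 1, 2 and 3. For 8 probe sets of 25S rRNA, of the large subunit, it was 7.64, 7.47 and 7.36 with GmbHLHm1 and 8.41, 8.66 and 8.03 with the empty vector. All GmbHLHm1 arrays lay below all empty vector arrays in both cases, with differences of -1.40 and -0.87 (exact permutation test, two-sided, p = 0.1 for each, the smallest that 3 against 3 allows). The 5.8S probe set, for an RNA cut from the same precursor as 25S, differed by -0.09, and its groups overlapped (exact permutation p = 0.4). The 65 members, in contrast, had group means 0.04 apart. How much of an abundant RNA without a poly(A) tail enters the labelled sample is set in the labelling, whose details the labels do not give, and its part in these differences was not tested.

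**Figure D5:**
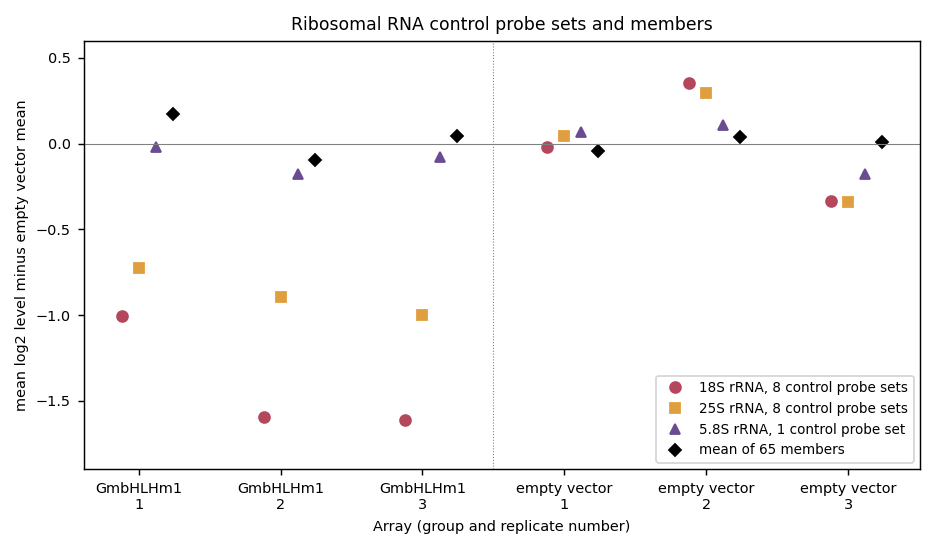
The mean log2 level of 18S, 25S and 5.8S rRNA control probe sets and of the 65 members on each array, each minus its own empty vector mean. The 18S and 25S points of the 3 GmbHLHm1 arrays lie far below those of the empty vector arrays, while the members stay within 0.2 of 0.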

How the data were processed

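The authors deposited intensities on a linear scale. Per the submitters' processing notes they were made with RMA, in a program not given in the sources used here. RMA is meant to equalize the arrays' distributions, which can hide a shift shared by all transcripts. The deposited values were not fully equal. Their median intensity over all probe sets was 150, 142 and 138 on GmbHLHm1 replicates 1, 2 and 3, and 118, 126 and 125 on empty vector replicates 1, 2 and 3. The mean log2 level of all tested genes was 10.27 with GmbHLHm1 and 10.22 with the empty vector. The log2 of each deposited value was taken. Identifiers of assembly R64 matched 5498 of the table's 10928 probe sets, or 5449 genes, each represented by its probe set with the highest mean. The 95th percentile of 1746 annotated probe sets with other gene identifiers was each array's background.

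The comparison used limma 3.58.1 under R 4.3.3 (lmFit, eBayes, no filter, no block), with p-values adjusted by Benjamini-Hochberg over all 5449 genes at 0.05; the steps were tested on simulated data. Intervals are unadjusted. The members, role groups and gene lists were chosen with earlier results of these data known. Groups came from the labels. Genes were named by a rule: all members past the test, the 6 highest and 6 lowest changes, the extremes and the brightest of each role group, the core snoRNP proteins, the members of widest and narrowest spread, and in each list up to 2 genes past the test in each direction or else the one of smallest p. Other members were named by role. Alternatives were a replicate block, other normalization or centring, weighting of arrays, omission of dim genes, a robust prior with a trend, an unmoderated statistic, other choices of probe set, a stricter threshold, a pseudocount of 16 and leaving out each array. Figures were drawn with matplotlib 3.10.9. No promoter or protein sequences were used here.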

Additional observations from a re-analysis of the deposited data

How the results depend on the processing

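The count of 1 member past the test became 0 with a replicate block, quantile normalization of the tested genes, an unmoderated statistic, a robust prior with a trend, 1 fit over all probe sets, or a threshold of 0.01; it ranged from 0 to 5 when 1 array was left out. RSA3 was positive in all 17 alternatives and missed its threshold in 10 of them, with adjusted p from 0.0147 to 0.124. The 5 genes of the other lists became 2 with the replicate block, 1 without moderation, 0 with all probe sets and 0 at 0.01, and 0 to 12 when 1 array was left out. The 659 genes past the test over the whole table became 427 with the replicate block, 349 with all probe sets, 284 without moderation and 243 at 0.01, and 251 to 723 when 1 array was left out; their split of 406 higher and 253 lower became 331 and 332 with quantile normalization and 343 and 310 with median centring. The median change of the members, 0.03, was -0.02 after quantile normalization and -0.03 without GmbHLHm1 replicate 1, and 0.10 without GmbHLHm1 replicate 2. Whether equal replicate numbers pair the samples was not settled. Deviations of arrays 1, 2 and 3 from their group mean correlated at -0.07, -0.08 and 0.14 with those of the same number in the other group. Not every array correlated best with its own number, though the replicate 3 arrays did. Deviations from a mean of 3 arrays make these correlations depend on one another, so they cannot exclude a pairing. Of the 65 members 26 kept the sign of their change in every alternative fit, 21 higher and 5 lower. The difference of the 18S and 25S probe sets lay between -1.31 and -0.98 when 1 array was left out.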

Other observations

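The regulators as a list did not share the members' order across the GmbHLHm1 cultures: 11 of 20 were higher on replicate 1 than on replicate 2, with a median difference of 0.004, against 54.4% of all tested genes. The regulators described next were picked out after their values were seen, and they include repressors and activators. Of the 20 regulators 4 were highest in replicate 1 and lowest in replicate 2 of GmbHLHm1 (20%, against 22% of all tested genes). STB3, a repressor that binds promoters of ribosome biogenesis genes, read 10.95, 11.32 and 11.07 on GmbHLHm1 replicates 1, 2 and 3, and 10.97, 10.92 and 10.84 on empty vector replicates 1, 2 and 3. DOT6, a repressor of the same genes, read 11.48, 11.73 and 11.65 on GmbHLHm1 replicates 1, 2 and 3, and 11.71, 11.58 and 11.71 on empty vector replicates 1, 2 and 3. Among the GmbHLHm1 cultures both were lowest in replicate 1, where the members' mean was highest, and highest in replicate 2, where it was lowest. SCH9, the kinase known to favour ribosome synthesis, had the same order, with 11.44, 11.71 and 11.51 on GmbHLHm1 replicates 1, 2 and 3, and 11.65, 11.59 and 11.63 on empty vector replicates 1, 2 and 3. TOD6, the paralogue of DOT6, did not vary this way, with 9.74, 9.73 and 9.69 on GmbHLHm1 replicates 1, 2 and 3, and 9.56, 9.58 and 9.63 on empty vector replicates 1, 2 and 3. The activator gene SFP1 read 11.16, 11.08 and 11.14 on GmbHLHm1 replicates 1, 2 and 3, and FHL1 read 8.83, 8.52 and 8.55. Both had the order of the members' mean, highest in replicate 1 and lowest in replicate 2. IFH1, with 9.29, 9.08 and 9.04, was also highest in replicate 1 but lowest in replicate 3. None of these passed limma's test between the groups, with adjusted p of 0.223 for STB3, 0.741 for DOT6, 0.603 for SCH9 and 0.112 for TOD6. For SFP1, FHL1 and IFH1 the adjusted p by limma was 0.761, 0.497 and 0.922. With 3 cultures per group there are too few for a correlation.

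Ribosome biogenesis genes often lie side by side in the yeast genome. In the gene order of assembly R64, 8 pairs of neighbouring genes held a member and another member or listed gene of ribosome synthesis, 2 of them with members on either side (RSA3 with UTP13, and RRP15 with NOC4). RSA3 was the single gene past the test among them, and its neighbour UTP13 differed by 0.01.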
